A study of Mus musculus with 3 samples.

Results

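Levels of 10 genes listed as neuronal, namely Sncg, Htr1f, Slc6a15, Pcdh17, Nrcam, Syn2, Ntm, Robo2, Hpca and Bche, were followed through 3 cell fractions of mouse epididymal fat. They are 10 of the 37073 genes on the arrays and are read by 32 of 56605 probes. The genes were chosen by the array ratios behind the study's lists of neuronal genes at least 5-fold higher in small proliferative adipocytes (SPA) than in stromal vascular cells (SVC), or in mature adipocytes (MA) than in SPA. Those lists were drawn from these same arrays, so every ratio of these genes is a description, and none is tested or used as support.

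Cells were from epididymal fat of male C57/BL mice aged 20 weeks, with no transgene, deletion or treatment named for any fraction, and the number of mice behind each sample is not stated in the sources used here. After collagenase digestion, a spin of 1 s at 9 g left SVC in the lower phase. A spin of 226 g for 3 min then parted the floating cells into MA on top and SPA in the sediment. SVC and SPA were grown in DMEM to 90% confluency before harvest, whereas no culture is described for MA, so culture and cell type cannot be told apart between SPA and MA. The titles of SVC and SPA carry 1 date and that of MA another, which cannot be told apart from the fraction either.

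Most of the 10 genes encode proteins that neurons use to find, contact and signal to other cells. Nrcam, Ntm, Pcdh17 and Robo2 are adhesion or guidance proteins of the cell surface, which steer growing axons and hold contacts in place. Syn2 coats synaptic vesicles, Sncg is γ-synuclein, a small soluble protein of peripheral neurons that adipocytes are also known to make, and Hpca is a calcium sensor of hippocampal neurons. Htr1f is a serotonin receptor, Slc6a15 takes up neutral amino acids and Bche is butyrylcholinesterase, which circulates in plasma and breaks down choline esters.

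The arrays read each gene through probes of 60 bases, and 8 of the 10 genes had more than 1 probe. The sequences below, as given in the deposited array files with positions in the mm9 build, are shown because the results turn on whether the probes of a gene moved together. For Sncg, Hpca, Nrcam and Robo2 the printed probe spans more of the genome than its own length, 1094, 5643, 2396 and 5469 bases, which is the layout of a probe across a splice junction. Whether the others lie in an exon that codes for protein was not determined here, because no annotation of mm9 was used.
Sncg, the second probe, chr14:35186555-35187648, minus strand: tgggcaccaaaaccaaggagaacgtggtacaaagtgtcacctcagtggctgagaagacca
Bche, the second probe, chr3:73504577-73504636, minus strand: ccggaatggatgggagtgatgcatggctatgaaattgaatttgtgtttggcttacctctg
Hpca, the third probe, chr4:128789991-128795633, minus strand: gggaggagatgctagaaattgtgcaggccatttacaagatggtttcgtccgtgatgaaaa
Ntm, the third probe, chr9:28816842-28816901, minus strand: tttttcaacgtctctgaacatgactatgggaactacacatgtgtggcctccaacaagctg
Nrcam, the second probe, chr12:45645852-45648247, plus strand: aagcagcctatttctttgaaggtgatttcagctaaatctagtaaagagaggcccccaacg
Robo2, the first probe, chr16:73928398-73933866, minus strand: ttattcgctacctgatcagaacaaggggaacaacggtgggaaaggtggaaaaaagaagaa
Probes of a gene are ordered by their mean level over the 3 arrays, and a gene is read at its first probe unless another is named.

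Each fraction was measured on 1 Agilent 1-colour array, so no difference has a replicate check on the arrays and no p-value is given. The signal named below is the scanner's processed signal in arbitrary units, and the level is the log2 of its ratio to the array's 75th percentile, which was a signal of 430 in SVC, 439 in SPA and 366 in MA. The error given with a ratio was computed from the error the scanner software attaches to each spot, and it covers neither mice nor cultures. A ratio to an array on which the probe did not clear the background is a bound, written as at least N-fold. Over all genes, SVC had 57% well above background, SPA 60% and MA 60.4%, and the median log2 ratio was 0.05 for SPA over SVC, -0.08 for MA over SPA and -0.07 for MA over SVC. The 12 adipocyte markers were well above background for 7 genes in SVC and for 12 each in SPA and MA, and their summed signal, in units of the 75th percentile, was 1.21, 26.2 and 2031. With 1 RNA pool per fraction, fewer cells that make a transcript and less of it per cell cannot be told apart.

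SVC had 5 of the 10 genes well above background, SPA 7 and MA 8. Between SVC and SPA, only Sncg was at least 5-fold higher and no member was 5-fold lower, where 0.322% of all genes tested were higher and 0.353% lower. The study's list for SPA over SVC also names Htr1f, Slc6a15, Pcdh17, Nrcam, Robo2, Hpca and Bche. None of these was shown to reach 5-fold at its brightest probe here. Slc6a15 gave 4.91-fold, Pcdh17 4.55-fold, Bche 2.79-fold and Nrcam 1.93-fold. Htr1f gave a bound of 1.93-fold or more, which does not exclude 5-fold, and Hpca and Robo2 gave no ratio. The reason for this difference from the list was not tested. From SPA to MA, Sncg, Syn2, Hpca and Bche were at least 5-fold higher and Slc6a15 and Nrcam at least 5-fold lower, against 5.49% and 3.98% of all genes tested. Between MA and SVC, Pcdh17 joined these 4 higher genes and Nrcam alone was lower, against 5.74% and 3.97% of all genes. With bounds at their limit, the median log2 ratio of the members was 1.48 over 7 genes with a ratio for SPA over SVC, 1.59 over 10 genes for MA over SPA and 3.15 over 9 genes for MA over SVC. Both arrays measured the gene for 5, 5 and 4 of these ratios, respectively, and the others are bounds. Counted by probe, 2 of 14 with a ratio were higher and 0 lower for SPA over SVC (0.267% and 0.293% of all probes tested), 6 of 21 higher and 2 lower for MA over SPA (5.14% and 3.75%), and 7 of 17 higher and 1 lower for MA over SVC (5.35% and 3.78%). Nearest to the 5-fold limit lay Sncg at 7.05-fold inside it and Slc6a15 at 4.91-fold outside it for SPA over SVC, and, of the members higher in MA than in SPA, Syn2 at 13.9-fold inside and Ntm at 4.67-fold or more outside. Of those lower in MA, Slc6a15 lay inside at 13.3-fold or more and Htr1f outside at 2.21-fold or more.

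**Figure D1:**
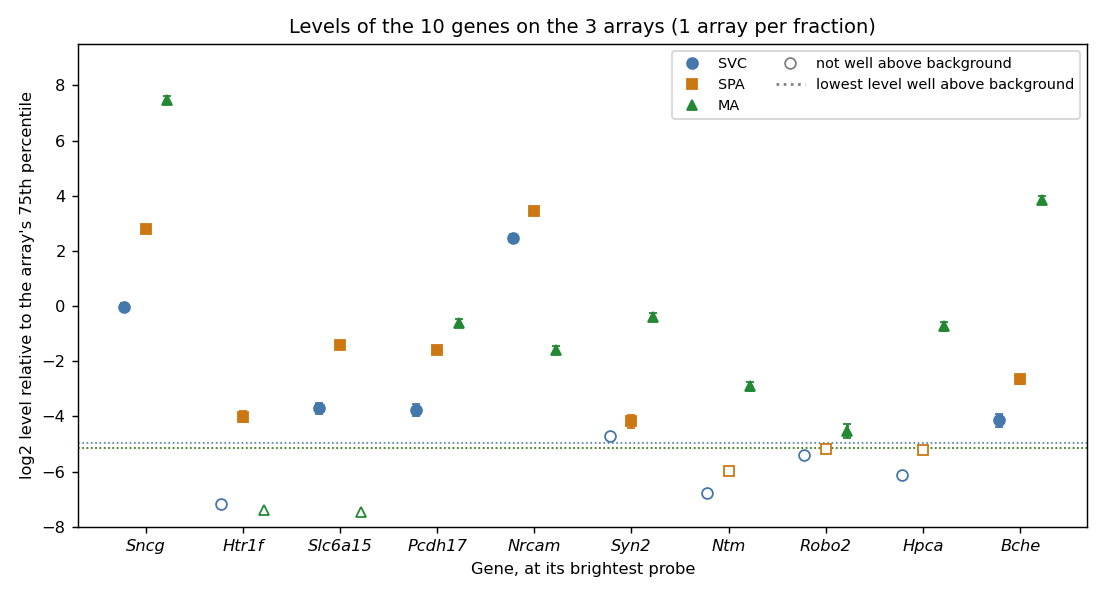
Log2 level of each of the 10 genes at its brightest probe in SVC (circles), SPA (squares) and MA (triangles), with 1 array each, where bars show the scanner software's error of the spot, open symbols are not well above background and dotted lines mark the lowest level of a probe well above background. Sncg stepped up from -0.02 to 2.80 and 7.48, whereas Nrcam, Slc6a15 and Htr1f were highest in SPA.

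Sncg was the one member at least 5-fold higher at each step. Its first probe, at chr14:35183497-35183556 on the minus strand, gave a signal of 426 in SVC, 3062 in SPA and 65078 in MA, or levels of -0.02, 2.80 and 7.48. All 3 arrays measured it well above background, with SVC lowest and MA highest. The log2 ratio was 2.82 ± 0.20 for SPA over SVC, or 7.05-fold, and 4.67 ± 0.20 for MA over SPA, or 25.5-fold. By real-time PCR with replicates, the paper reports Sncg as rising in the same order of fractions. Most of the paper's experiments used mice younger than the 20 weeks labelled for these arrays. The age behind the PCR is not stated in the sources used here. The paper also reports staining of the protein in cultured SPA and in epididymal fat.

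The second Sncg probe, which reads across the splice junction, gave 97.3 in SVC, 638 in SPA and 14749 in MA. The order of the fractions was the same as at the first probe. Its ratios were 6.43-fold for SPA over SVC and 27.7-fold for MA over SPA, each within the spot error of the ratio at the first probe. Over MA and SVC directly, the 2 probes gave 180-fold and 178-fold.

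Among genes well above background on the arrays compared, Sncg ranked 28 for SPA over SVC, 194 for MA over SPA and 33 for MA over SVC. In both steps 32 genes on the arrays were higher by 5-fold or more, and Sncg was the only one of the 10 among them. The pattern most like that of Sncg, by the Euclidean distance between both log2 ratios over these 3 arrays and among 19865 genes, was that of Fabp4, the fatty acid binding protein of adipocytes, at a distance of 0.37. Fabp4 had log2 ratios of 2.85 and 4.31. Next came Agt (angiotensinogen) at 0.70, the insulin-regulated glucose transporter Slc2a4 at 0.74, the organic cation transporter Slc22a3 at 0.78 and Fam13a at 0.89. No gene other than Fabp4 lay within 0.50 of Sncg, whereas 7 genes lay that close to Pcdh17, 11 to Nrcam and 4 to Bche.

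Bche resembled Sncg in being highest in MA, with a smaller first step. Its first probe, at chr3:73439735-73439794 on the minus strand, gave 24.4 in SVC, 69.4 in SPA and 5242 in MA, or levels of -4.14, -2.66 and 3.84. MA stood far above both cultured fractions, which were close to the dim end of the scale. The log2 ratio was 1.48 ± 0.28 for SPA over SVC, or 2.79-fold, and 6.50 ± 0.21 for MA over SPA, or 90.7-fold. With the normexp background correction SPA over SVC was 0.61 on the log2 scale.

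The second Bche probe, some distance away on the same chromosome, gave 3.23 in SVC, where it was not well above background, 17.4 in SPA and 836 in MA. Again MA was highest by a wide margin. MA exceeded SPA 57.8-fold there, and SPA exceeded SVC at least 1.23-fold, a bound that does not exclude 5-fold. With no filter on dim probes the log2 ratio of SPA over SVC was 2.4 there. From SVC to MA the ratio was 253-fold at the first probe, rank 21 among all genes measured on both arrays, and at least 70.8-fold at the second.

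Ache, acetylcholinesterase and the enzyme nearest to Bche, was not well above background in SVC or SPA and was at least 1.67-fold higher in MA than in SPA. In the list of 16 cholinesterase and cholinergic genes, Bche included, SVC had 8 well above background, SPA 8 and MA 10. From SPA to MA, Bche alone was at least 5-fold higher, and the muscarinic receptor Chrm1 (7.61-fold) and the nicotinic receptor subunit Chrna7 (at least 5.93-fold) were lower. The median log2 ratio was 0.79 over 8 genes with a ratio for SPA over SVC and 0.93 over 11 for MA over SPA.

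Of the adhesion and guidance proteins, Nrcam had the largest ratio at the brightest probe, and its other probes gave only bounds for MA over SPA. Nrcam binds other cell adhesion molecules and ankyrin at axon initial segments and nodes of Ranvier. Its first probe, at chr12:45699758-45699817 on the plus strand, gave 2409 in SVC, 4750 in SPA and 121 in MA, or levels of 2.48, 3.44 and -1.60. Both cultured fractions were high, SPA the higher, and MA was low but well above background. SPA exceeded SVC 1.93-fold (log2 0.95 ± 0.20), and MA was 32.8-fold below SPA (log2 -5.03 ± 0.21) and 16.9-fold below SVC.

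The other 3 Nrcam probes each had its highest signal in SPA. The probe across the splice junction gave 35.8 in SVC, 52.4 in SPA and 2.51 in MA, where it was not well above background. It placed SPA 1.43-fold above SVC and at least 4.23-fold above MA. The third and the fourth probe were well above background in SPA alone, at 22.3 and 15.3, and placed SPA at least 1.80-fold and at least 1.23-fold above MA. All 4 probes thus ran SPA above MA, and the first alone was shown to pass 5-fold. The ratios of MA over SPA at the other 3 probes are bounds, which do not exclude 5-fold. With these bounds at their limit, the median over the probes was -1.46 on the log2 scale.

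Among the 13 genes of the L1 adhesion family and its axonal partners, Nrcam was the only one at least 5-fold different between MA and SPA. Its closest relatives moved less, and the log2 ratio of MA over SPA was -0.71 for L1cam, -0.89 for Chl1 and 0.89 for Nfasc. The median log2 ratio was -0.41 over the 12 genes with a ratio. From SVC to SPA the guidance cue Sema3a was the only gene of this list past 5-fold, with a log2 ratio of -2.37.

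Pcdh17, a protocadherin of the delta group that sorts axons and synapses, rose in level with each fraction. Its first probe, at chr14:84933861-84933920 on the plus strand, gave 31.5 in SVC, 146 in SPA and 238 in MA, or levels of -3.77, -1.58 and -0.62. SPA lay nearer to MA than to SVC. SPA over SVC was 4.55-fold (log2 2.19 ± 0.26), MA over SPA 1.95-fold (log2 0.96 ± 0.21) and MA over SVC 8.87-fold. With the normexp background correction SPA over SVC was 1.13 on the log2 scale and MA over SVC 1.84, short of 5-fold.

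A second Pcdh17 probe gave 3.59 in SVC, 9.30 in SPA and 15.5 in MA, and was well above background in MA alone, so it bounds MA over SPA at 1.49-fold or more. Of 10 delta protocadherins, none was at least 5-fold different from SVC to SPA or from SPA to MA, and Pcdh17 was the only one past 5-fold between MA and SVC. The median log2 ratio was 0.12 over 8 of them with a ratio for SPA over SVC and -0.17 over 9 for MA over SPA.

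Ntm (neurotrimin), an IgLON adhesion protein anchored to the membrane by lipid, was well above background in MA alone. Its first probe, at chr9:28802433-28802492 on the minus strand, gave 3.98 in SVC, 7.06 in SPA and 48.6 in MA. The second gave 3.31, 3.53 and 31.8, and the third, printed above, 3.65, 2.54 and 15.7. All 3 were dim in both cultured fractions and brighter in MA. They placed MA above SPA at least 4.67-fold, 3.05-fold and 1.51-fold, and the other 3 Ntm probes were well above background on no array.

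Negr1, another IgLON protein and one the study also lists, was the only one of these 5 genes past 5-fold, with levels of -4.60 in SVC, -4.11 in SPA and -0.21 in MA and 14.9-fold more in MA than in SPA. Opcml and Lsamp were well above background on all arrays with log2 ratios of MA over SPA of 1.28 and 1.30. Iglon5 stood alone with a negative ratio, -0.79. The median log2 ratio of the 5 was 1.30.

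Robo2, a receptor for the repellent Slit proteins, was not shown to reach 5-fold at any of its 8 probes, and 6 of these were well above background on no array. The first probe gave 10.3 in SVC, 12.1 in SPA and 16 in MA, and was well above background in MA alone, at least 1.54-fold over SPA. The second, at chr16:73896049-73897284, gave 3.48 in SVC, 20.8 in SPA and 2.52 in MA, and cleared the background in SPA alone. It bounds SPA over SVC at 1.47-fold or more, which does not exclude 5-fold. With no filter on dim probes that log2 ratio was 2.55. The fraction that was highest differed between both probes. The scanner software marked the local background of the second probe's SPA spot as outlying.

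Relatives of Robo2 were measured in more fractions. Of 10 Slit and Robo guidance genes, 9 were well above background in each fraction. Robo4, the Robo receptor of endothelial cells, had levels of -2.40 in SVC, -1.09 in SPA and 4.45 in MA, and was 46.3-fold higher in MA than in SPA. Slit2 and Srgap3 were 12.3-fold and 14.0-fold lower in MA than in SPA. The 10 endothelial markers stood beside this at a summed signal of 7.73, 9.45 and 96.6 in the same order, with 8 of 10 at least 5-fold higher in MA than in SPA, and their part in these results was not tested.

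**Figure D2:**
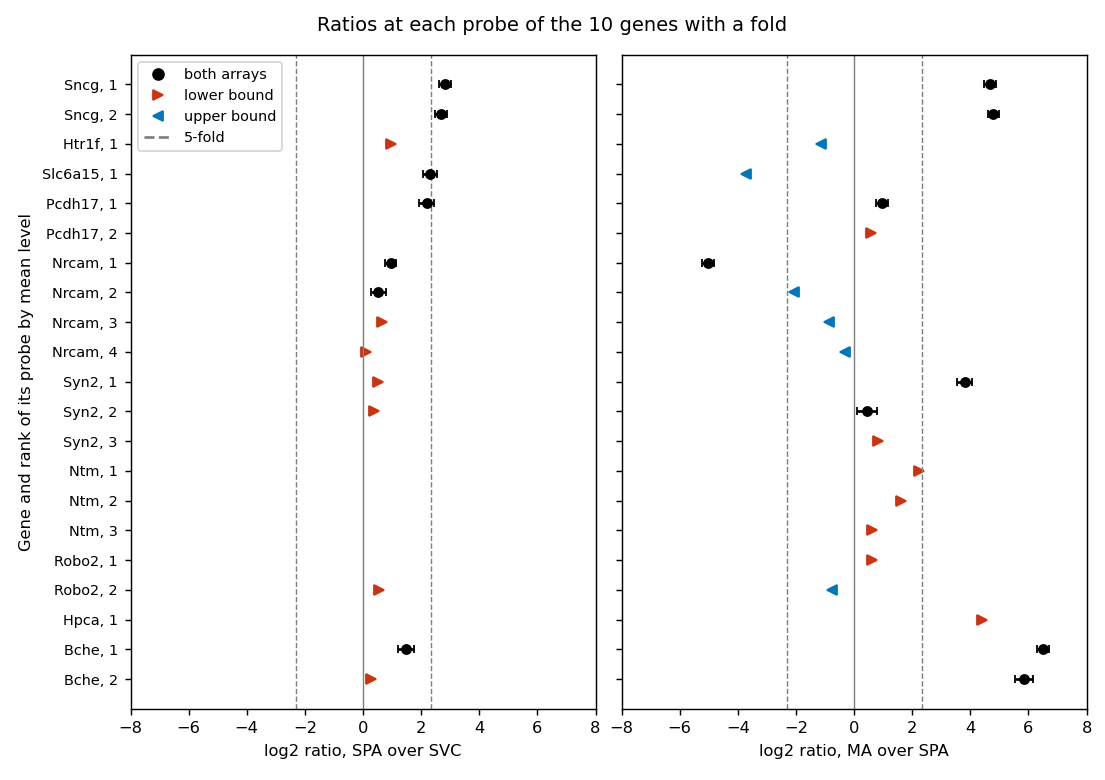
Log2 ratio at each probe with a ratio, SPA over SVC on the left and MA over SPA on the right, numbered by rank within the gene, where black points with bars (error of the ratio from the scanner software) were well above background on both arrays, triangles are bounds and dashed lines mark 5-fold. Both Sncg probes lay within their bars of each other and both Bche probes passed 5-fold for MA over SPA, whereas the Syn2 probes spread from 1.36-fold to 13.9-fold for MA over SPA.

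Syn2, which tethers synaptic vesicles to actin, depended on the probe. Its first probe, at chr6:115226390-115226449 on the plus strand, gave 16.5 in SVC, where it was not well above background, 24.2 in SPA and 280 in MA. MA was high and the cultured fractions were near background. MA over SPA was 13.9-fold (log2 3.80 ± 0.27), and SPA over SVC at least 1.44-fold. Under the normexp background correction, MA over SPA was 2.12 on the log2 scale, short of 5-fold.

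The second Syn2 probe, at chr6:115228668-115228727, gave 14.4 in SVC, 19.0 in SPA and 21.5 in MA, or 1.36-fold for MA over SPA (log2 0.44 ± 0.34). The third, at chr6:115231474-115231533, gave 3.56, 3.06 and 18.3, or at least 1.76-fold. MA was highest at each of the 3 probes, while the fold spread from 1.36 to 13.9. The second probe has no RefSeq match, and whether the 3 probes read the same transcript was not tested.

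Other vesicle genes did not share a direction. Of 28 synapsin and synaptic vesicle genes, Syn2 included, SVC had 20 well above background, SPA and MA 21 each, and none was 5-fold different between SPA and SVC. From SPA to MA, Syn2 and the complexin Cplx1 (at least 6.58-fold) were among those at least 5-fold higher. Syn1, the synapsin best known from nerve terminals, was 12.2-fold lower in MA and Syngr1 53.2-fold lower. The median log2 ratio of the 28 genes was -0.01 over the 22 with a ratio.

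Hpca had 10 spots of its first probe, at chr4:128788820-128788879 on the minus strand. In SVC they ran from 3.08 to 10.2 with a median of 6.75, and 0 of 10 were well above background. In SPA the 9 spots kept ran from 7.42 to 16.6 with a median of 12.3, and 2 of them were well above background, whereas in MA they ran from 199 to 231 with a median of 220, and 10 of 10 were. The MA spots did not overlap those of either cultured fraction. The mean in MA was 219 ± 9.94 (SD, n = 10 spots of 1 array), so MA was at least 21.0-fold over SPA and at least 18.5-fold over SVC. With the normexp correction the log2 ratio of MA over SPA was 2.11, short of 5-fold.

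The other 2 Hpca probes gave no ratio to set beside this. The second, at chr4:128797527-128797586, gave 10.4 in SVC, 14.2 in SPA and 11 in MA, and the third, across the splice junction, 2.93, 2.61 and 6.19. Neither was well above background on any array, so no rise or lack of one can be read from them. Of 11 neuronal calcium sensors, Hpca was the only one at least 5-fold higher in MA than in SPA, and Ncs1, which regulates transmitter release, was 19.5-fold lower. Hpcal1, the relative of Hpca with a broad distribution, had a log2 ratio of -0.67.

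**Figure D3:**
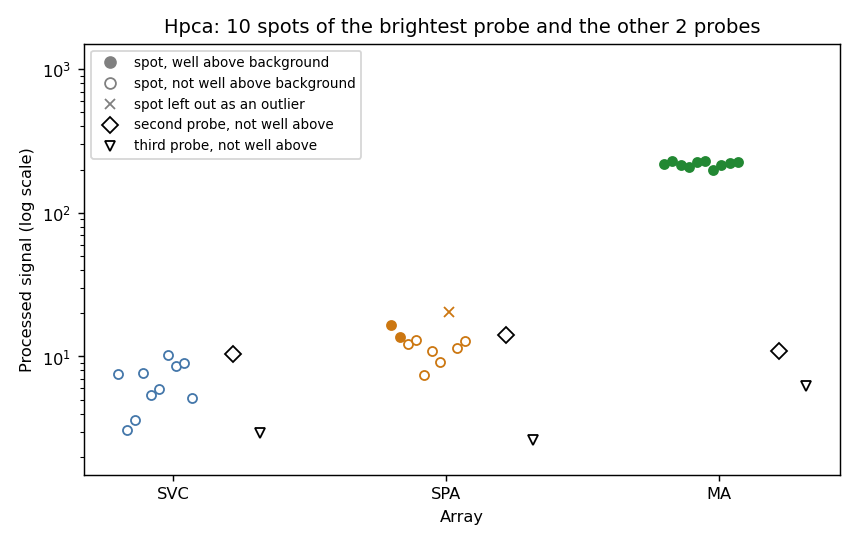
Processed signal on a log scale of the 10 spots of the first Hpca probe on each array, filled where well above background, with a cross for the SPA spot left out as an outlier and black open symbols for the the other 2 probes. The MA spots lie between 199 and 231, and the other 2 probes were well above background on no array.

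Slc6a15 and Htr1f had their highest signal in SPA. The single probe of Slc6a15, at chr10:102881847-102881906 on the plus strand, gave 32.9 in SVC, 165 in SPA and 2.07 in MA, where it was not well above background. SPA was the highest of the fractions and MA was at background. SPA exceeded SVC 4.91-fold (log2 2.30 ± 0.24; rank 52 among genes measured on both arrays) and MA at least 13.3-fold, and SVC exceeded MA at least 2.71-fold. With the normexp correction SPA over SVC was 1.30 on the log2 scale, and MA over SPA was -1.67, short of 5-fold.

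Most transporters of the SLC6 family that differed did so in the same direction as Slc6a15. Of 20 genes, 5 were at least 5-fold lower in MA than in SPA, namely Slc6a15, the creatine transporter Slc6a8 (12.1-fold), the glycine transporter Slc6a9 (12.9-fold), the betaine transporter Slc6a12 (26.1-fold) and Slc6a17 (at least 5.51-fold). The GABA transporter Slc6a13 was the only one higher, by 28.5-fold. From SVC to SPA none passed 5-fold. The median log2 ratio was 0.87 for SPA over SVC over 11 genes and -0.81 for MA over SPA over 12 genes.

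Htr1f, at chr16:64924583-64924642 on the minus strand, gave 2.95 in SVC, 27.3 in SPA and 2.20 in MA. Only the SPA value was well above background, at a level of -4.01. The single probe thus bounds SPA at 1.93-fold or more over SVC and 2.21-fold or more over MA. With no filter on dim probes the log2 ratio of SPA over SVC was 3.18, past 5-fold. The raw signal of that spot was 63.8 over a local background of 34.0. Around it, within 16 rows and 8 columns of the array, 18.0% of the spots dim in SVC cleared the background in SPA, against 9.77% over the whole array, and the part of this in the Htr1f value was not tested. Around the Robo2 spot named above the share was 21.9%, and around the fourth Nrcam probe 13.9%. It was 8.04% around the third Nrcam probe, 8.24% and 8.62% around the first and the second Syn2 probe, and 8.63% around the second Bche probe. Around 3 spots of the first Hpca probe it was 4.27%, 11.3% and 11.6%, and 1 of these is the spot left out as an outlier.

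Of 20 genes for serotonin receptors, transport, synthesis and breakdown, SVC had 8 well above background, SPA 10 and MA 8. Htr2b, a Gq-coupled serotonin receptor, followed the order of Htr1f with levels of -1.74 in SVC and -0.59 in SPA, and it was at least 23.6-fold lower in MA than in SPA. Higher in MA than in SPA were Maob (6.54-fold), which breaks down amines, and Tph2 (at least 10.6-fold), which makes serotonin in neurons. No gene of the list passed 5-fold from SVC to SPA.

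**Figure D4:**
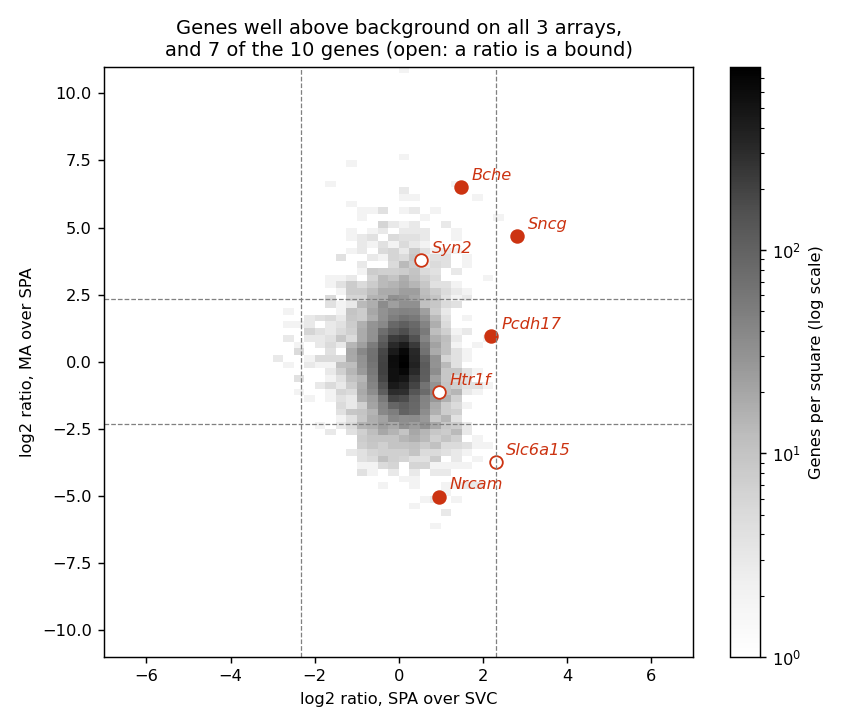
Log2 ratio of MA over SPA against that of SPA over SVC for the 19865 genes well above background on all 3 arrays (grey, number of genes per square on a log scale) and for 7 of the 10 genes (red, open where a ratio is a bound), with dashed lines at 5-fold. Sncg alone of the 7 lies past both 5-fold lines, and Nrcam and Slc6a15 lie past the lower one for MA over SPA.

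Markers of neurons did not move as a block with the 10 genes. Of 24 general neuron markers, SVC and SPA each had 14 well above background and MA 17. Their summed signal was 46.0, 79.7 and 19.4 in units of the 75th percentile. The differences in this sum follow Uchl1, the brightest of the list in SVC and SPA, and not the markers as a set. None was 5-fold different between SPA and SVC, where the median log2 ratio over 15 genes was 0.18, and 1 was higher and 4 were lower in MA than in SPA, where it was 0.67 over 17 genes. Among those measured on all arrays were Uchl1, with levels of 4.70, 5.89 and 0.19, Snap25, with 3.34, 3.17 and 2.88, and Syp, with 1.48, 1.66 and 2.52. The 1 marker at least 5-fold higher in MA than in SPA was Stmn2, by 14.9-fold, with levels of -1.72, -3.48 and 0.42. Rbfox3, the marker of mature neuronal nuclei, was well above background in MA alone, at -4.31, as were Elavl3 at -3.58 and Dbh at -4.35. Syt1, Nefh, Dcx, Slc17a6, Slc17a7 and Gad2 were well above background on no array. The part of neuronal RNA in the levels of the 10 genes was not tested.

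Schwann cell markers had 9, 10 and 9 of 12 genes well above background in SVC, SPA and MA and a summed signal of 8.78, 8.55 and 48.8. Egr2, which cells other than Schwann cells also express, held most of it with levels of 2.25, 2.17 and 5.40. Sox10, which defines the lineage, stood at -4.40, -3.05 and -3.80. MA exceeded SPA at least 5-fold for 2 of the 12, and none was lower.

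Other cells differed between the fractions beside the 10 genes. Red cell markers had a summed signal of 0.407 in SVC, 0.437 in SPA and 679 in MA. Macrophage markers summed to 578, 621 and 229, but their median log2 ratio of MA over SPA was 0.03, with 3 of 12 at least 5-fold higher and 1 lower. Smooth muscle and pericyte markers summed to 730, 335 and 82.3, while their median was 1.14, with 4 of 10 higher and 2 lower, so these sums follow a few bright genes such as Acta2 and Tagln. Mesothelial markers summed to 75.9, 21.6 and 32.8. The 12 progenitor and fibroblast markers summed to 436, 312 and 582, lymphocyte markers to 10, 10.6 and 11.8, and epididymal epithelium markers to 0.471, 0.476 and 0.442. The part of these cells in the members' ratios was not tested.

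The study lists a further 22 genes as neuronal, which it chose on these arrays, so their direction is no independent evidence. SVC had 8 of them well above background, SPA 20 and MA 14. In SPA against SVC, 2 passed 5-fold as higher and none as lower, and in MA against SPA 9 as higher and 2 as lower, with a median log2 ratio of 1.14 in both comparisons, over 20 and 22 genes. Ecel1, a membrane peptidase of neurons, had levels of -0.94 in SVC and 3.15 in SPA and was not well above background in MA. Nnat (neuronatin) ran the other way between SPA and MA, with levels of -3.34 in SVC, -1.83 in SPA and 5.17 in MA.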

How the data were processed

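Gene expression was measured with 1 Agilent 1-colour array of SVC, SPA and MA each, on 1 slide and in 1 scan. Cy3-labelled cRNA was made from 50 ng of total RNA. The authors deposited spot intensity from Agilent Feature Extraction 10.7.3.1, per the labels, as a processed signal after background subtraction and detrending. They also deposited a ratio of that signal to 1 constant per array, which held across spots within a relative 1.37e-06. The constants were 374 in SVC, 386 in SPA and 322 in MA, equal as rounded to the 75th percentile over all spots. The column medians were 0.0743, 0.0783 and 0.0789. GeneSpring GX is named in the methods and a limit of 5-fold in the results of the paper, and the normalization is not given in the sources used here.

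Of 62976 spots, 59305 were not controls. Outlier spots were left out (75 in SVC, 98 in SPA, 129 in MA), and 0 spots were saturated. Levels were the log2 of the processed signal over the 75th percentile of its array, spots of 1 probe were averaged, and a probe counted as well above background where at least the share 0.5 of its spots did. Of several probes of a gene the brightest on average over the arrays stood for it, and a gene was called where it was at least 5-fold different. Where a probe was dim on 1 array, the higher of its own level and the lowest level of a probe well above background there (-4.95, -5.14 and -5.15) was used as a bound, and a gene dim on both arrays was not tested. Of 300 probes spotted 10 times, the log2 signal had a median SD of 0.04, 0.04 and 0.05 where all spots were well above background. For the others of these probes it was 0.6, 0.59 and 0.47, so values of dim probes are far less precise. The number of arrays limits the precision.

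The 10 genes, the gene lists and the settings were chosen with earlier results of these data known. Outside the 10, genes named were the 3 brightest and any past 5-fold in each family list and among the study's other listed genes. Also named were the 3 brightest of each cell type list and the 5 most like Sncg. Picked after their values were seen were Ache, L1cam, Chl1, Nfasc, Sox10, Rbfox3, Stmn2, Elavl3 and Dbh. So were the neuron markers well above background on no array. Of the genes that this rule allows, not all are named, and some are not reported here. Of the 32 probes, 18 had an accession in the RefSeq table of GRCm38.p6, all 18 under the same symbol. Among probes with a ratio, those without one were the first of Ntm and the second of Syn2, Pcdh17 and Robo2. The third and the fourth of Nrcam also had none. Probes of a gene may therefore read different transcripts. Alternatives were 9 settings and 1 added after seeing the data. Simulated ratios were used to test the calls. The tools were R 4.3.3, limma 3.58.1, Python 3.11.15, pandas 2.3.3, numpy 2.4.6 and matplotlib 3.10.9.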

Additional observations from a re-analysis of the deposited data

How the results depend on the processing

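Each group had 1 array, so leaving out a replicate was not possible. No paired analysis was possible because each group had 1 array and no test was run. With the normexp background correction (offset 50), 2 of the 10 genes were at least 5-fold higher in MA than in SPA in place of 4, 2 were higher in MA than in SVC in place of 5, and 1 was lower in MA than in SPA in place of 2. There the log2 ratio of MA over SPA was 2.12 for Syn2, 2.11 for Hpca and -1.67 for Slc6a15, while Sncg and Bche stayed higher and Nrcam lower. Without the filter on dim probes, SPA exceeded SVC for 2 genes (Sncg and Htr1f) in place of 1, and 2 were lower in MA than in SVC in place of 1. With probes well above background on both arrays only, 3 were higher in MA than in SVC and 1 lower in MA than in SPA. That setting drops every bound and leaves the measured ratios as they were, so the smaller counts follow from the rule. As the median of a gene's probes, 3 were higher in MA than in SVC and 1 lower in MA than in SPA, where Syn2 was at 0.82 and Nrcam at -1.46. The medians of Syn2 and Nrcam take bounds at their limit, so larger differences are not excluded. At the probe with the largest ratio, 1 was lower in MA than in SPA and 0 in MA than in SVC. That rule takes the largest signed ratio, so it reads a gene lower in MA at its least lowered probe. Fewer lower genes there follow from the rule and are not informative. Quantile normalization, another percentile, the deposited ratios, leaving out spots with outlying local background, and, added after seeing the data, counting a probe with any spot well above background left these counts within 1.5 times. No ratio of a gene called changed sign. Over the 10 alternatives, the log2 ratio of Sncg ran from 2.65 to 2.82 for SPA over SVC and from 4.61 to 5.04 for MA over SPA. Beyond what the largest-ratio rule and the dropping of bounds fix in advance, the cause of these shifts was not tested. Signal over background limits what can be read of Htr1f, Ntm and Robo2.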
